A study of Mus musculus with 6 samples.

Results

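The 45 genes described here encode the machinery of the chemical synapse: synaptic vesicle proteins, the fusion and recycling apparatus, the active zone with the synaptic ribbon, and the scaffolds under the postsynaptic membrane. They were chosen by name, 34 presynaptic and 11 postsynaptic, and every probe set whose single annotated gene was one of them was taken. That gave 113 of 45037 probe sets, for 44 of the 45 genes, out of 18193 genes named in the annotation. No probe set was matched to Shank2, which was not analysed here. Whole retinas of DBA/2J females were profiled on Affymetrix mouse arrays, 1 retina per array, taken from 3 mice aged 3 months with normal intraocular pressure and 3 mice aged 8 months with elevated pressure. In this inbred strain, inherited pigment disease of the iris leads to raised pressure and glaucoma in later life. The last pressure was 17.5 ± 1.99 mmHg in the younger and 27.4 ± 2.67 mmHg in the older animals (SD, n = 3 each). Animals were picked by pressure at each age, so age and pressure cannot be told apart, and arrays of a strain without glaucoma were not analysed here.

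At a chemical synapse, vesicles loaded with transmitter are held near the release site, are primed by SNARE proteins, and fuse when calcium reaches a synaptotagmin. Photoreceptors and bipolar cells of the retina release glutamate continuously from ribbon synapses, where a protein plate tethers vesicles at the active zone, whereas amacrine and ganglion cells use conventional active zones. On the receiving side, scaffold proteins hold receptors in place opposite the release site. Ganglion cells, which glaucoma damages, receive their input in the inner plexiform layer and send their own axons out of the eye. In whole retina, fewer cells of a type and less RNA per cell cannot be told apart.

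The values are log2 signals, so 1 unit is a doubling, and a gene's brightest probe set is the one of highest mean signal. Brightness serves here to pick or name a probe set, since signals of different probe sets do not measure relative transcript amounts. A probe set was kept for testing where at least 3 of the 6 arrays reached 4. This kept 84 of the 113 probe sets, for 43 genes. The 29 others, in 22 genes, read between 2.26 and 3.98 on all arrays. Shank1, a postsynaptic scaffold gene, was the 1 gene with a probe set and none kept. Ages were compared with limma over all 20973 kept probe sets with Benjamini-Hochberg adjustment, and a difference is the 8-month mean minus the 3-month mean.

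The synaptic genes chosen here showed, as a set, no common direction between the younger and the older retinas. Single members differed by at most 0.62 on the log2 scale. No member passed the adjusted threshold of 0.05 (0 of 84 probe sets, smallest limma adjusted p = 0.208), against 1 probe set or 0.00477% over the whole table. With an unadjusted limma p under 0.05 came 12 member probe sets, or 14.3%, beside 14.9% of all kept probe sets. Of these, 5 were lower at 8 months and 7 higher (6.0% and 8.3%), where the whole table had 10.3% lower and 4.63% higher. The ages did not overlap in 23 member probe sets, or 27.4%, against 21.8% over the table. Among them 11 were lower and 12 higher, 13.1% and 14.3%, with table values of 14.9% and 6.89%. A difference of 0.3 or more in either direction was seen in 9 of the 84, 10.7%, against 14.5%.

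By sign alone, 42 member probe sets lay below 0 and 42 above, 50% each, against 59.4% of the table. The presynaptic median difference was 0.02 over 68 probe sets and the postsynaptic median -0.03 over 16, beside -0.04 for all kept probe sets. Under quantile normalization and cyclic loess 39 and 38 member probe sets lay below 0, against 51.3% and 50.4% of the table. Median centring, which moved the median of all probe sets to 0.04, left 28 members below 0, 33.3% against 41.2%. It gave 1 member lower and 15 higher at an unadjusted limma p under 0.05, where the table had 1000 lower and 2141 higher. Probe sets of 1 gene share their transcripts and are not independent of each other. The median 95% half-width of a member's difference was 0.25, while the median size of the difference was 0.11, so the typical difference lay inside its own error. Beside single members below, the adjusted p over all 20973 probe sets is given.

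**Figure D1:**
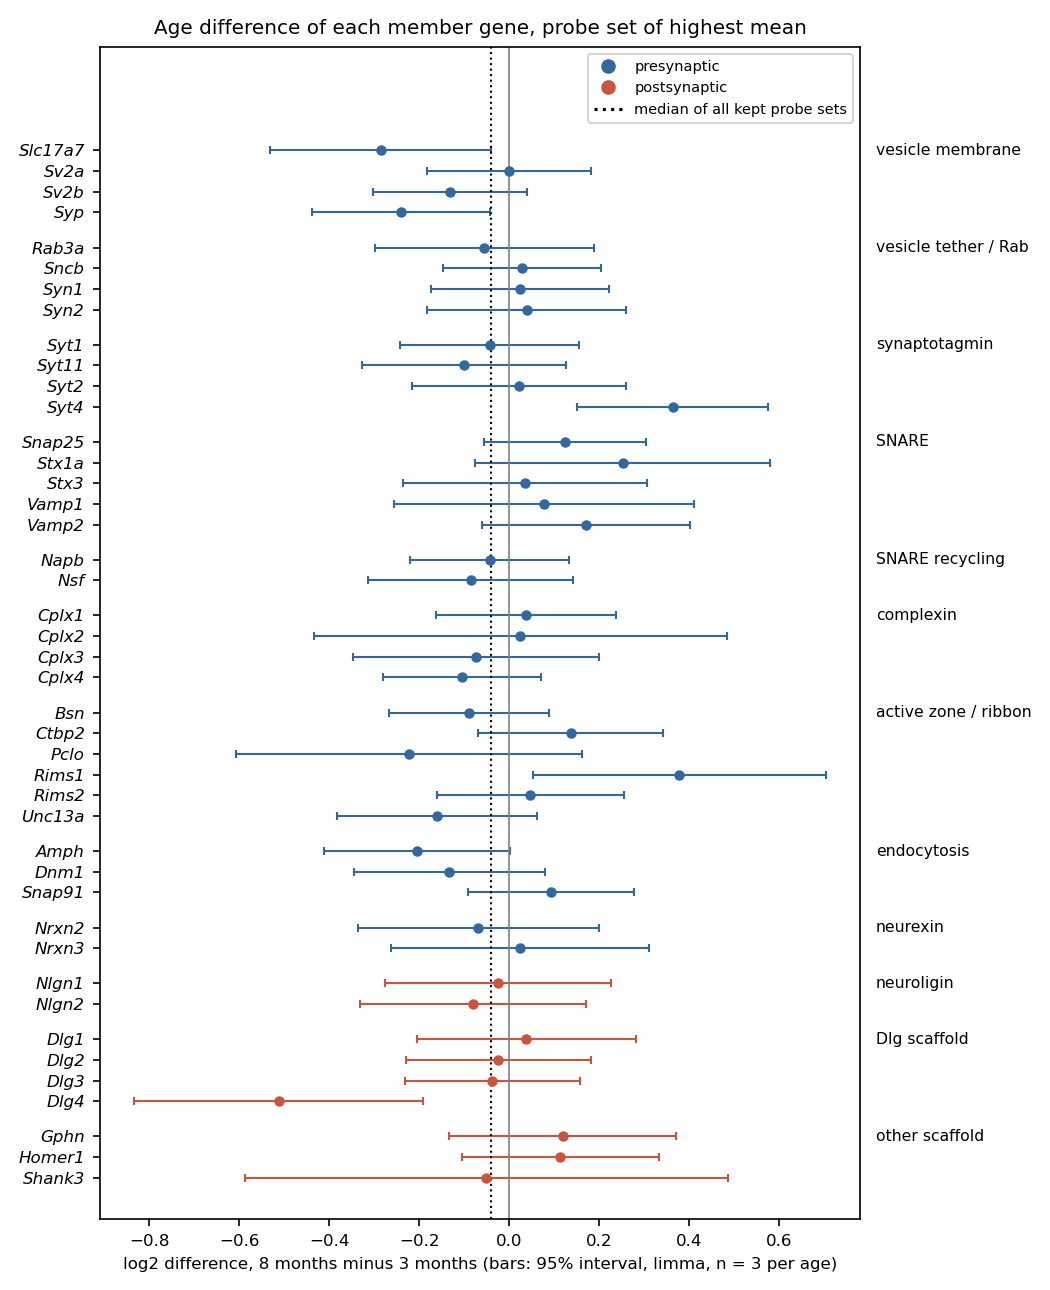
Log2 difference between 8 and 3 months (horizontal axis) for the 43 measured genes, each by its brightest kept probe set, with 95% limma intervals from 3 retinas per age. Presynaptic genes are blue and postsynaptic genes red. The intervals of Slc17a7, Syp, Syt4, Rims1 and Dlg4 lie to 1 side of 0, and those of the other genes include it.

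The retinal identity of the samples was checked on markers. All 9 rod markers found in the annotation were kept, as were all 8 of Müller glia, 9 of ganglion cells and 9 of 10 of amacrine and horizontal cells, while 1 of 6 skeletal muscle genes was. Bipolar markers were kept for 5 of 6, and microglial markers for 5 of 10, with a median difference of 0.35 and all 5 above 0. Lens genes were kept for 7 of 11 and varied between single retinas, with a mean log2 level of 4.92 to 11.30 at 3 months and 4.33 to 10.08 at 8 months. The highest were 3-month retina 3 and 8-month retina 1. Without these 2 retinas 7 member probe sets had an unadjusted limma p under 0.05, 2 lower and 5 higher, 8.3% against 7.47% of all probe sets in the same fit. The part of lens material in the member differences was otherwise not tested. Pigment epithelium genes were kept for 5 of 7 and also varied between retinas. Their mean log2 level was 6.41 to 7.61 at 3 months and 6.69 to 7.60 at 8 months, highest in 3-month retina 3 and 8-month retina 2. The part of pigment epithelium in the member differences was not tested.

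Vesicle membrane genes read lower in the older retinas in 4 of 5 kept probe sets, 1 of them (Sv2a) by almost nothing, with a median difference of -0.13. That is 80%, against 59.4% of the table. Quantile normalization, median centring and cyclic loess each left 3 of 5 lower, against 51.3%, 41.2% and 50.4% of the table. Median centring gave a median of -0.05, beside 0.04 for all probe sets. Without the lens-rich retinas, or without 3-month retina 3, 5 of 5 were lower. Without 3-month retina 1 or 8-month retina 3 this was 3 of 5. Slc17a7 encodes the vesicular glutamate transporter VGLUT1, which fills vesicles of photoreceptors and bipolar cells. Its log2 signals were 7.79, 7.79 and 7.54 in the 3-month retinas and 7.46, 7.30 and 7.49 in the 8-month retinas. All older retinas lay below all younger ones, by a narrow margin. The difference was -0.29 ± 0.10 (SE), 1.22-fold lower, with a limma adjusted p of 0.296. The unadjusted limma p of Slc17a7 was under 0.05 in 7 of 16 alternative analyses, with differences from -0.39 to -0.20. Among these is eye side as a covariate. As all 3-month retinas were left eyes, it compares only 8-month retina 1, the left one of its age, with the 3-month mean. Syp encodes synaptophysin, an abundant vesicle membrane protein of most synapses. It read 9.97, 10.02 and 10.02 at 3 months and 9.65, 9.83 and 9.81 at 8 months. The younger retinas were close together and all above the older ones, of which retina 1 was lowest. The difference was -0.24 ± 0.08 (SE), 1.18-fold lower (limma adjusted p = 0.285). For Syp the unadjusted limma p was under 0.05 in 11 of 16 alternatives, and was 0.143 without the lens-rich retinas.

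Sv2b, a vesicle glycoprotein gene that in the retina serves ribbon terminals, read 11.05, 11.03 and 11.06 at 3 months and 10.96, 10.92 and 10.87 at 8 months in its brighter probe set. The ages did not overlap, but the difference was small, at -0.13 ± 0.07 (SE), and its second kept probe set differed by 0.01. Sv2a, its paralogue of wider distribution, differed by 0.00 with a 95% interval of -0.18 to 0.18. Beside these values, 8 of 9 ganglion cell markers and 7 of 9 rod markers were lower at 8 months. These are 88.9% and 77.8%, against 63.5% of all genes by their brightest probe sets. The median differences were -0.12 and -0.09, beside -0.06 for all genes. Bipolar markers were higher in 3 of 5, with a median of 0.08, and amacrine and horizontal markers in 6 of 9, with a median of 0.13. The part of these cell types in the vesicle gene differences was not tested.

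The upstream sequences of Slc17a7 and Syp are shown because they are the vesicle membrane genes whose ages did not overlap at an unadjusted p under 0.05. Each is 250 bases ending at the RefSeq gene start (GRCm38.p6). Slc17a7 lies on the plus strand at chr7:45163671-45163920 and Syp on the plus strand at chrX:7638330-7638579. Capitals mark matches, on either strand, to any of 5 short motifs: the GC box GGGCGG, the TATA box TATAAA, the cyclic AMP response element TGACGTCA, the core TAATCC bound by the photoreceptor factor CRX, and the CCAAT box CCAAT.
Slc17a7: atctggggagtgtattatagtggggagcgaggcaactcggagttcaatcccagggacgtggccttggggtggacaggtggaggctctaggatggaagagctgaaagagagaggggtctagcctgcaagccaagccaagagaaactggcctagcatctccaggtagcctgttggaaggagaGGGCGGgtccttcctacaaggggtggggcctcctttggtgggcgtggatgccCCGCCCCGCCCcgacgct
Syp: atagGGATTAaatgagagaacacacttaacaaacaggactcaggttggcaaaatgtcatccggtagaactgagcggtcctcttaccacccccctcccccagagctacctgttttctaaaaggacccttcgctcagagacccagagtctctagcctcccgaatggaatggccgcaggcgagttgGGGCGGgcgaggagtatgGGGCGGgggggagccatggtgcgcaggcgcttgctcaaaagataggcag
Slc17a7 held 3 GC boxes, starting 70, 18 and 13 bases upstream, the last 2 overlapping each other. Syp held 2 GC boxes, starting 67 and 49 bases upstream, and a CRX core near the far end of the window, 246 bases upstream. GC boxes occurred in 32.7% of 32851 RefSeq windows of this length and CRX cores in 6.25%. Over the 57 windows of 37 member genes the shares were 42.1% and 8.77%, those of TATA boxes 10.5% against 12.4%, of CCAAT boxes 26.3% against 33.9%, and of the cyclic AMP element 1.75% against 1.55%. A match is a description of letters and not a binding site.

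Vesicle tether genes had differences near 0 by their brightest probe sets. Of their 7 kept probe sets 6 lay above 0, with a median of 0.04, where 59.4% of the table lay below. This was 7 of 7 under median centring, and 4 of 7 with eye side as a covariate or without 3-month retina 2. The synapsins bind vesicles to the cytoskeleton, Syn1 mainly in conventional synapses, and Rab3a is the small GTPase of docked vesicles. Differences were 0.02 for Syn1, 0.03 for Sncb, the beta-synuclein gene, and -0.06 for Rab3a by its brighter probe set. Syn2 was read by 3 kept probe sets, differing by 0.04, 0.20 and 0.34. The last of these was dim, at 4.11, 4.27 and 4.12 in the younger and 4.45, 4.55 and 4.52 in the older retinas. The ages were apart there (difference 0.34 ± 0.08 SE, limma adjusted p = 0.223), close to the level at which probe sets were left out. They were also apart in the probe set differing by 0.20, at 6.40, 6.64 and 6.64 against 6.74, 6.74 and 6.80 (limma adjusted p = 0.367). The brightest Syn2 probe set overlapped between ages, at 9.14 to 9.29 and 9.13 to 9.36.

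Synaptotagmins, the calcium-binding vesicle proteins that trigger or modulate fusion, included Syt4, with the smallest p among brightest probe sets of presynaptic genes. This isoform does not act as a fast release sensor and also rides on dense-core vesicles. Its log2 signals were 10.05, 10.22 and 9.97 at 3 months and 10.46, 10.44 and 10.42 at 8 months. The older retinas were close together and above every younger one. The difference was 0.36 ± 0.09 (SE), 1.29-fold higher, with a limma adjusted p of 0.223. A second Syt4 probe set differed by 0.08 with overlapping ages, at 10.05, 9.68 and 9.86 against 10.02, 10.03 and 9.79. The difference of the first was positive in all 16 alternative analyses and its unadjusted p was under 0.05 in each.

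Syt11, a synaptotagmin that does not bind calcium and acts in membrane retrieval, gave the smallest p among the members in 1 of its 4 kept probe sets. That probe set read 5.30, 5.44 and 5.10 at 3 months and 5.85, 5.67 and 5.96 at 8 months (difference 0.55 ± 0.12 SE, limma adjusted p = 0.208). It is of a class whose probes can match transcripts of other genes. The 3 others differed by -0.06, -0.10 and -0.11, all with overlapping ages. Syt1, the fast calcium sensor of most central synapses, read 10.11, 9.99 and 9.97 against 9.91, 10.06 and 9.97 in its brightest probe set, a difference of -0.04 with a 95% interval of -0.24 to 0.15. Its other 3 kept probe sets ranged from -0.22 to 0.14. Syt2, the related sensor of fast synapses, stood near the filter and differed by 0.02.

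SNARE proteins zip vesicle and plasma membrane together. Here all 8 kept probe sets of the 5 genes had a difference above 0, from 0.04 to 0.34, where 59.4% of the table lay below. Under quantile normalization, without the lens-rich retinas, without 3-month retina 3 and without 8-month retina 3 this was 7 of 8. Amacrine and horizontal cell markers were also higher at 8 months in 6 of 9, with a median of 0.13. Of all genes, 63.5% were lower, with a median of -0.06. Of these 9, 2 were higher at an unadjusted limma p under 0.05 (22.2%, against 15.1% of all genes). Rod and ganglion cell markers had 2 of 9 each at that level, all lower. Müller glia markers were higher in 6 of 8, with a median of 0.06. The part of these cell types in the SNARE gene differences was not tested. Snap25, the plasma membrane SNARE of neurons, had a log2 signal of 13.21, 13.29 and 13.15 at 3 months and 13.34, 13.35 and 13.34 at 8 months. A second probe set gave 12.42, 12.74 and 12.65 against 12.78, 12.80 and 12.83. Both kept the ages apart, with differences of 0.12 ± 0.08 and 0.20 ± 0.10 (SE) with limma adjusted p of 0.469 and 0.396.

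Stx3 encodes the syntaxin used at ribbon synapses in place of Stx1a. Its brightest probe set differed by 0.04, with overlapping ages at 11.88 to 12.29 and 12.09 to 12.16. A dimmer one read 7.52, 7.76 and 7.82 in the younger and 8.10, 8.11 and 7.90 in the older retinas (0.34 ± 0.11 SE, limma adjusted p = 0.276). The 2 thus disagreed on size though not on direction. Stx1a, of conventional synapses, read 6.27, 6.28 and 5.83 against 6.36, 6.28 and 6.49, apart by under 0.01 at the nearest pair (0.25 ± 0.14 SE), in a probe set that may match other transcripts. The vesicle SNARE genes Vamp2 and Vamp1 differed by 0.17 and 0.08, with overlapping ages.

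SNARE recycling, in which the ATPase of Nsf and the adaptor beta-SNAP of Napb pull spent complexes apart, showed how far probe sets of 1 gene can diverge. Napb had 5 kept probe sets with differences of -0.04, 0.08, 0.11, 0.36 and 0.62, in falling order of brightness. The dimmest read 8.96, 8.66 and 8.20 at 3 months and 9.39, 9.29 and 8.99 at 8 months (limma adjusted p = 0.275). The lowest value was that of 3-month retina 3, and without this retina the difference was 0.42. It was 0.33 without both lens-rich retinas (limma adjusted p = 0.688). The next dimmest, of the class that may match other transcripts and at 0.36, overlapped between ages, reading 9.24, 8.97 and 8.77 against 9.57, 9.43 and 9.07, and its difference was 0.15 without both lens-rich retinas (limma adjusted p = 0.819). The brightest Napb probe set was flat, at 10.76, 10.66 and 10.69 against 10.62, 10.66 and 10.69. Nsf differed by -0.09 in its brightest probe set and by 0.04 and 0.25 in the dimmer ones.

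**Figure D2:**
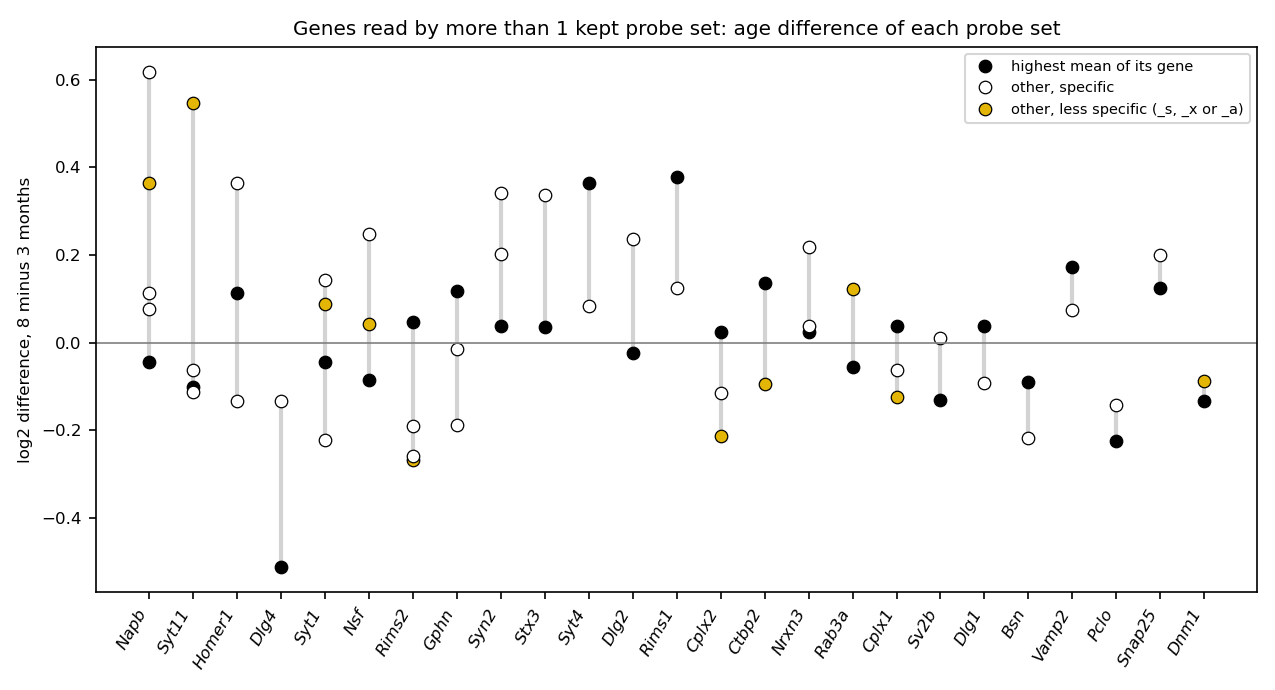
Log2 difference between 8 and 3 months (vertical axis) of every kept probe set of the 25 genes with more than 1, ordered by the spread within the gene. Black marks the probe set of highest mean, and yellow those others that can match several transcripts. The line joining a gene's probe sets crosses 0 in 14 genes, and Napb, Syt11 and Homer1 have the widest spreads.

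Disagreement of this kind was common. Of 25 member genes with more than 1 kept probe set, 14 had differences of both signs: Syt1, Syt11, Nsf, Napb, Cplx1, Cplx2, Sv2b, Rims2, Ctbp2, Rab3a, Dlg1, Dlg2, Homer1 and Gphn. The other 11 had probe sets of the same sign. Signal at the 3' end minus the 5' end, a measure of how complete the labelled RNA was, stood at 0.71, 0.75 and 0.73 for Gapdh at 3 months and 0.81, 0.76 and 0.77 at 8 months, without overlap. For actin the ages overlapped, at 1.62, 1.87 and 1.79 against 1.84, 1.71 and 1.82. The part of RNA quality in the spread of probe sets within a gene was not tested.

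Complexins clamp and promote SNARE fusion. Cplx3 and Cplx4 are the forms of ribbon synapses, Cplx1 and Cplx2 those of conventional ones. Differences were below 0 in 6 of 8 kept probe sets, 75% against 59.4% of the table. They were below 0 in 4 of 8 under median centring, against 41.2% of the table. Without 8-month retina 3 this was 8 of 8, as it was with eye side as a covariate, for 8-month retina 1 alone. Cplx4, found in photoreceptor terminals, read 11.76, 11.69 and 11.68 at 3 months and 11.59, 11.64 and 11.58 at 8 months. Its ages were apart by a small step of -0.11 ± 0.07 (SE), with a limma adjusted p of 0.521. Cplx3 differed by -0.07 and overlapped. Cplx2 disagreed within itself, with 1 probe set at 7.48, 7.46 and 7.54 against 7.17, 7.28 and 7.39 (difference -0.21 ± 0.09 SE, limma adjusted p = 0.325) and its brightest at 0.02. The first is of the class that may match other transcripts, and its unadjusted p was under 0.05 in 5 of 15 alternatives. Cplx1 differed by 0.04, -0.06 and -0.12 in its 3.

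Active zone and ribbon genes had differences below 0 in 9 of 13 kept probe sets, 69.2% against 59.4% of the table, with a median of -0.14. The count was also 9 under quantile normalization, median centring and cyclic loess, where 51.3%, 41.2% and 50.4% of the table lay below 0. Under median centring the median was -0.06, beside 0.04 for all probe sets. It was -0.06 without the lens-rich retinas, -0.07 without 3-month retina 3 and -0.09 without 8-month retina 1, beside -0.04 for all probe sets in each. With a filter at 6 the count was 4 of 8, against 63.1% of the table, and the median -0.02, beside -0.06. Rims1 and Rims2 encode scaffolds that couple vesicles to calcium channels. Rims1 had log2 signals of 9.67, 9.74 and 9.26 at 3 months and 9.94, 10.02 and 9.85 at 8 months. The older retinas were all above the younger, among which retina 3 stood low. The difference was 0.38 ± 0.14 (SE), 1.30-fold higher (limma adjusted p = 0.298), and 0.23 without 3-month retina 3. A second Rims1 probe set gave 0.13 with overlapping ages, at 9.83, 9.66 and 9.53 against 9.80, 9.82 and 9.76. Rims2 had 4 kept probe sets, of which 3 were lower at 8 months. The one of smallest p, which may match other transcripts, read 7.21, 7.22 and 7.39 against 6.94, 7.12 and 6.96 (-0.27 ± 0.09 SE, limma adjusted p = 0.285). Another, brighter one was also apart, at 9.76, 9.83 and 9.77 against 9.55, 9.53 and 9.72. Yet the brightest Rims2 probe set differed by 0.05 in the other direction, with overlap, so the probe sets of Rims2 had no single direction. Whether Rims1 and Rims2 changed differently was not tested.

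Ctbp2 encodes a nuclear co-repressor and, from a start of its own, RIBEYE, the main protein of the synaptic ribbon. Its 2 probe sets read 9.90, 10.13 and 9.99 against 10.12, 10.14 and 10.17, and 8.20, 8.29 and 8.27 against 8.07, 8.26 and 8.14. Both overlapped between ages, with differences of 0.14 and -0.09. The annotation used does not say which product each probe set reads. Bsn, the gene of bassoon, which anchors the ribbon, read 5.64, 5.65 and 5.69 against 5.57, 5.51 and 5.62 in its brighter probe set. That is a step of -0.09 ± 0.08 (SE) without overlap, and a dimmer probe set gave -0.22. Pclo, the gene of the related giant protein piccolo, differed by -0.22 and -0.14, with overlap in both. In the first, 3-month retina 3 read 9.56 against 9.03 and 8.96 in its age mates and 9.01, 8.99 and 8.87 at 8 months. Unc13a, a vesicle priming factor, differed by -0.16 ± 0.09 (SE).

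The upstream windows of Rims1, which had the largest difference by brightest probe set among these genes, and of both RefSeq starts of Ctbp2 are shown with the same motifs in capitals. They are all on the minus strand (GRCm38.p6), at chr1:22806159-22806408 for Rims1, chr7:133081861-133082110 for the first Ctbp2 start and chr7:133015248-133015497 for the second.
Rims1: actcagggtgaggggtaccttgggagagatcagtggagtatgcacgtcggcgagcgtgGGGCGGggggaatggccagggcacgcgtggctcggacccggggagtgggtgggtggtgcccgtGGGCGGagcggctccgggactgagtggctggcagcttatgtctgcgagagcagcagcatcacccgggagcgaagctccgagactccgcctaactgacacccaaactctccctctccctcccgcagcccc
Ctbp2, first start: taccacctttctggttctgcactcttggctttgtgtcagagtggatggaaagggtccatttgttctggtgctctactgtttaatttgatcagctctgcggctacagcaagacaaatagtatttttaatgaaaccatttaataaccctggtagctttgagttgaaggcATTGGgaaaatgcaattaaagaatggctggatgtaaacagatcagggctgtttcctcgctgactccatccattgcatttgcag
Ctbp2, second start: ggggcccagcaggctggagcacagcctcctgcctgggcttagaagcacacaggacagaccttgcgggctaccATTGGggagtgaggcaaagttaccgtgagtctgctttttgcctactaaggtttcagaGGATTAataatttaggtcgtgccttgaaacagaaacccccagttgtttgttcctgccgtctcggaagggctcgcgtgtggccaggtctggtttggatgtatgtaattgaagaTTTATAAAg
Rims1 held 2 GC boxes, starting 192 and 129 bases upstream, and 68.0% of its bases were G or C. The Ctbp2 windows held no GC box. The first had a CCAAT box match 83 bases upstream. The second had a CCAAT match 178 bases and a CRX core 121 bases upstream, and TATA matches on both strands, overlapping each other, within 9 bases of the start. Their G and C shares were 42.4% and 51.6%, against a median of 52.4% over all windows.

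Endocytosis genes retrieve vesicle membrane after release. Amph, the gene of amphiphysin, which brings dynamin to the neck of the budding vesicle, read 8.28, 8.43 and 8.44 at 3 months and 8.11, 8.16 and 8.26 at 8 months. The ages were separate by a small gap, with a difference of -0.21 ± 0.09 (SE, limma adjusted p = 0.336). Dnm1, the neuronal dynamin that cuts the neck, differed by -0.13 and -0.09 and overlapped. Snap91, a clathrin assembly protein gene, differed by 0.09. The adhesion receptors Nrxn2 and Nrxn3, neurexins that reach across the cleft, differed by -0.07 for the former and by 0.02, 0.04 and 0.22 over 3 probe sets for the latter, all with overlapping ages.

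Postsynaptic genes had 11 of 16 kept probe sets below 0, 68.8% against 59.4% of the table. This was 5 of 16 under median centring, against 41.2% of the table, and 7 of 16 without 3-month retina 1. Probe sets with an unadjusted limma p under 0.05 numbered 2 (12.5%, against 14.9%), of Dlg4 and Homer1. Dlg4 encodes PSD-95, the scaffold that clusters glutamate receptors and is also found in photoreceptor terminals. Its log2 signals were 7.34, 7.66 and 7.83 in the 3-month retinas and 7.10, 7.19 and 7.0 in the 8-month retinas. The younger retinas were spread widely, but the lowest of them stayed above the highest older one. The difference of -0.51 ± 0.14 (SE), 1.43-fold lower, was the largest below 0 of any member (limma adjusted p = 0.229). It lay between -0.65 and -0.40 when single retinas were left out, always at an unadjusted p under 0.05. With eye side as a covariate, a comparison of 8-month retina 1 alone with the 3-month mean, it was -0.51. Without both lens-rich retinas it was -0.405 (limma adjusted p = 0.664). A second Dlg4 probe set differed by -0.13 ± 0.10 (SE), with overlap at 6.80, 6.85 and 6.52 against 6.62, 6.59 and 6.56. The 2 probe sets thus shared a direction but not a size.

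The other scaffolds of the Dlg family, known as MAGUKs, differed by less in their brightest probe sets. Dlg3 read 10.56, 10.39 and 10.47 against 10.37, 10.45 and 10.49, a difference of -0.04 with a 95% interval of -0.23 to 0.16. Dlg2, or PSD-93, differed by -0.02 in its bright probe set and by 0.24 in a dim one, at 4.88, 4.87 and 4.72 against 5.00, 4.94 and 5.24. Dlg1 differed by 0.04 and -0.09. Whether Dlg4 differed from its relatives in its change was not tested.

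Homer1 links metabotropic receptors to internal calcium stores and makes long scaffold forms and a short, activity-induced form. Of its 6 probe sets, 3 were kept. The middle one in brightness read 8.15, 8.12 and 7.72 at 3 months and 8.30, 8.45 and 8.34 at 8 months (0.36 ± 0.13 SE, limma adjusted p = 0.289). 3-month retina 3 was again the low one, and without it the difference was 0.23. The brightest differed by 0.11 and the dimmest by -0.13, both with overlap. Gphn, the gene of gephyrin, the scaffold of glycine and GABA receptors, read 8.11, 8.44 and 8.26 against 8.31, 8.38 and 8.48, with further probe sets at -0.01 and -0.19. Shank3, a master scaffold of excitatory synapses, was dim and variable and differed by -0.05 with an interval of -0.59 to 0.49. The neuroligins, partners of the neurexins, differed by -0.03 for Nlgn1 of excitatory and -0.08 for Nlgn2 of inhibitory synapses.

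**Figure D3:**
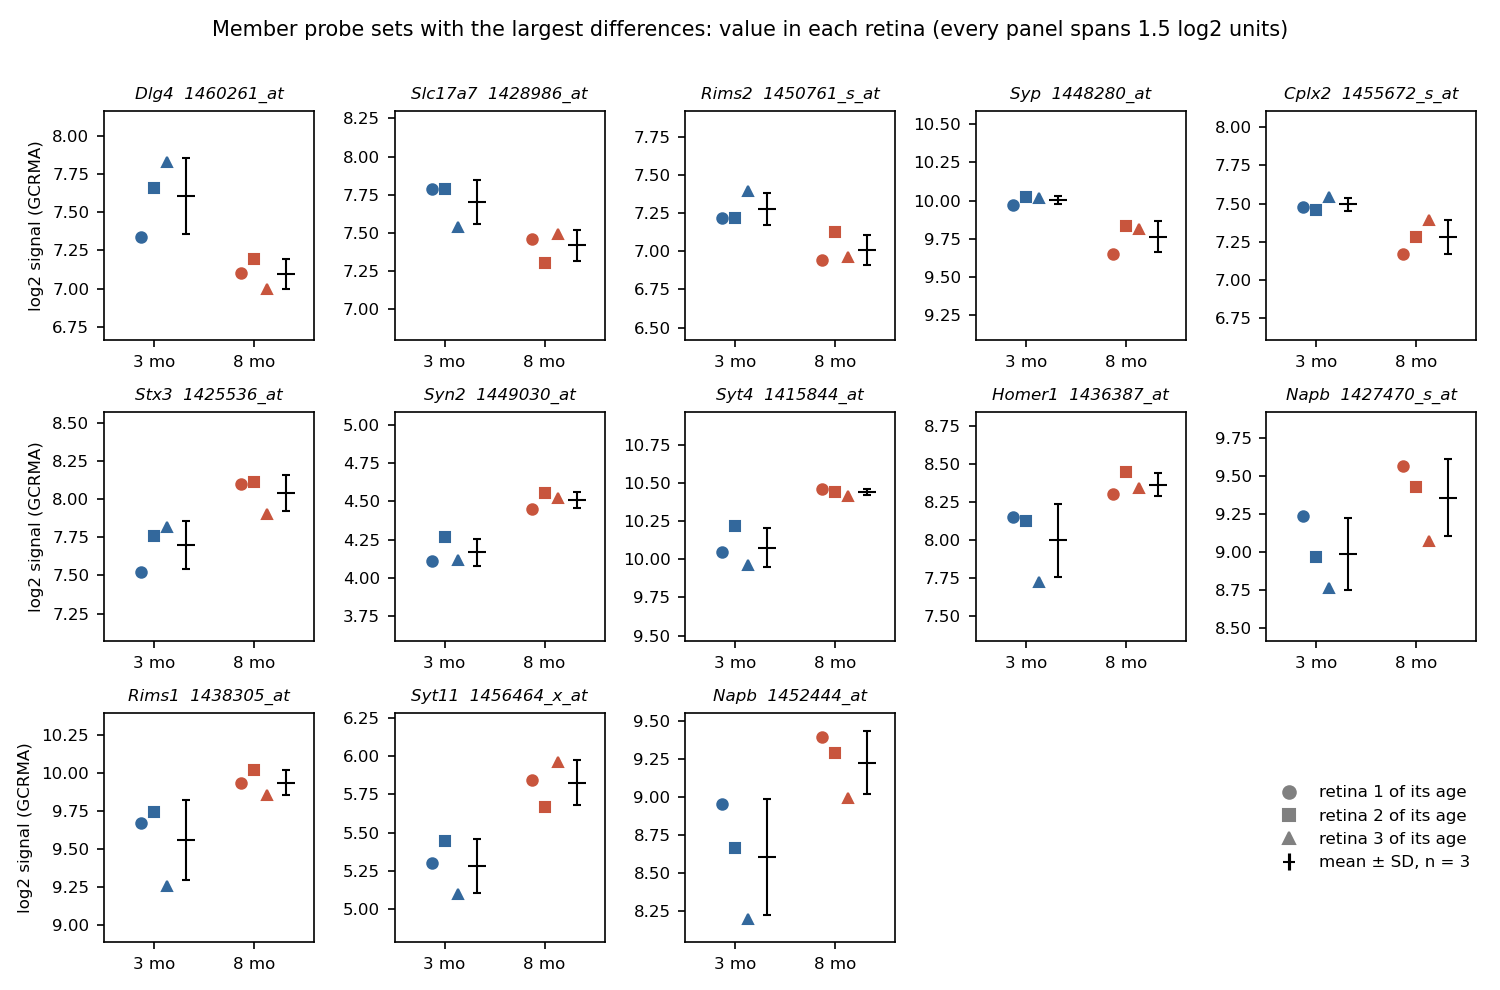
Log2 signal (vertical axis, the same span in every panel) in each of the 6 retinas for the 13 member probe sets with an unadjusted limma p under 0.05 or a difference of 0.3 or more. Symbols show single retinas, and black marks show the mean ± SD of the 3 at each age. In 12 panels the ages are apart, Napb at 0.36 being the exception. In both Napb panels and in Homer1, Rims1, Syt4 and Syt11 the lowest point is 3-month retina 3.

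Few genes had more than 1 probe set with a small p. Of the 10 genes with 1 or more probe sets at an unadjusted p under 0.05 and another kept one, namely Dlg4, Homer1, Rims1, Rims2, Syt11, Syt4, Cplx2, Stx3, Napb and Syn2, none had a second one past that level with the values as deposited. Under the 16 alternatives Napb had 2 such probe sets in 8, Syn2 in 4, Rims2 and Snap25 in 2 each, and Dlg4 in 1, without 3-month retina 3. Slc17a7 and Syp had 1 kept probe set each.

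Synaptic genes outside the 45 were read by a wider list, each by its brightest kept probe set. Of 56 other presynaptic genes, 41 had a difference below 0, 73.2%, against 63.5% of all 11219 genes measured this way, with a median of -0.08 beside -0.06. With an unadjusted limma p under 0.05, 10 were lower and 1 higher, 19.6% in all, against 15.1% of all genes, 1287 lower and 402 higher. The smallest p belonged to Doc2b, a calcium sensor of spontaneous and slow release. It read 6.37, 6.47 and 6.19 at 3 months and 5.62, 5.66 and 5.84 at 8 months (-0.64 ± 0.11 SE, limma adjusted p = 0.177). Next came Ap2b1, a clathrin adaptor gene, at -0.26, and Syn3, the third synapsin, at -0.30. The members themselves gave 23 of 43 genes below 0, 53.5%, by the same measure.

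Other genes of the photoreceptor ribbon synapse numbered 12, of which 8 were below 0, 66.7%, near the share of all genes. An unadjusted limma p under 0.05 was found for 3 (25%, against 15.1%), all lower. Egflam encodes pikachurin, the matrix protein that aligns bipolar dendrites with the photoreceptor terminal. It read 8.43, 8.40 and 8.36 against 8.13, 7.76 and 8.01, all older retinas below all younger ones (-0.44 ± 0.11 SE, limma adjusted p = 0.223). Tulp1, a photoreceptor protein needed for ribbon terminals, differed by -0.45, and Unc119, a lipid-binding protein of the same terminals, by -0.24. Of 33 other postsynaptic genes, 21 were below 0, with 2 lower and 3 higher at that level. These shares, 63.6% and 15.2%, are those of all genes, 63.5% and 15.1%. Lrrc4, a synaptic adhesion gene, differed by -0.39, and the scaffold genes Dlgap1 and Cnksr2 each by 0.35, Cnksr2 with overlapping ages. None of these genes passed the adjusted test.

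**Figure D4:**
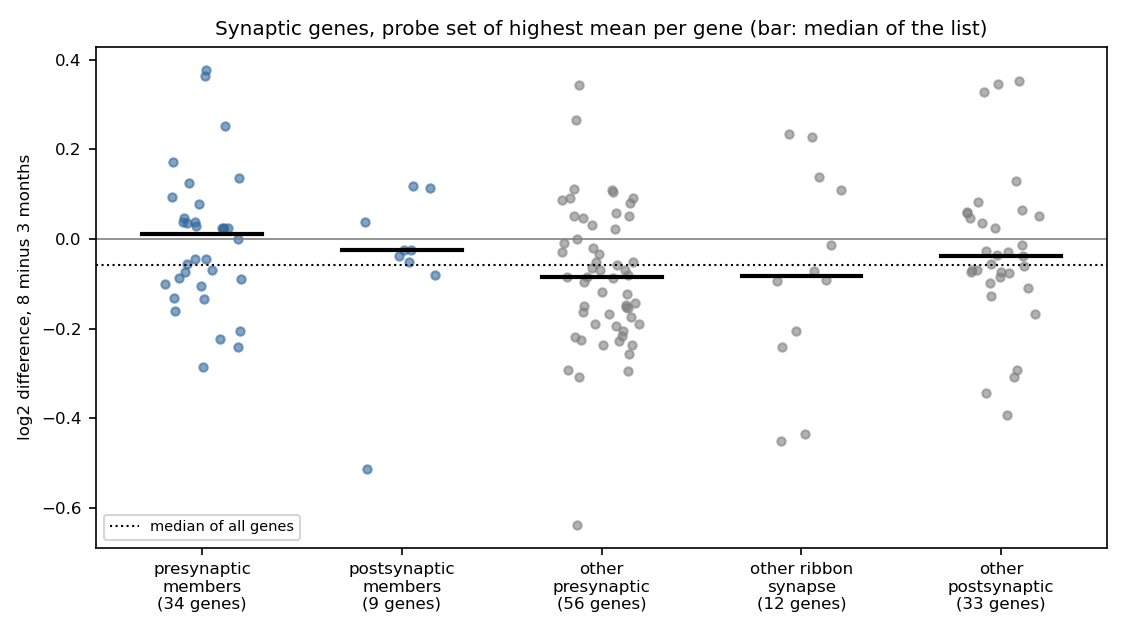
Log2 difference between 8 and 3 months (vertical axis) of single genes, each by its brightest kept probe set, for the members by side (blue) and for 3 lists of other synaptic genes (grey). Bars are list medians, 0.01 and -0.03 for the members and -0.08, -0.08 and -0.04 for the others, and the dotted line is the median of all genes, -0.06.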

How the data were processed

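Total RNA of 6 single retinas was amplified, biotin-labelled and hybridised to Affymetrix mouse arrays, per the labels' protocols. The deposited values are log2 signals per probe set that the authors computed by GCRMA (the submitters' processing notes list GCRMA 1.1.0 and R 1.9.0). GCRMA in general pulls dim probe sets together near background, which can shrink their differences. Not given in the sources used here are its settings and the scan dates. Eye side was left for all 3-month retinas and for 8-month retina 1, and right for 8-month retinas 2 and 3.

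Of 45101 probe sets, 64 Affymetrix controls were left out and 20973 kept (4 or more on at least 3 arrays, 46.6%). Genes came from the platform annotation, where 34945 probe sets had 1 symbol, 932 several and 9160 none. All 113 member probe sets matched RefSeq by gene identifier and 0 symbols changed. Suffixes _s_at and _x_at mark probes that can match other transcripts, and _a_at transcripts of 1 gene. The age comparison used limma 3.58.1 (lmFit, then eBayes, in R 4.3.3), two-sided and without covariates. This fit was run on simulated data with independent noise, and the models with covariates or a trend in the variance were not. The labels give separate animals. With 3 against 3 arrays, exact permutation reaches no p below 0.1 and was not used. The number of arrays limits the precision.

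Members and lists were chosen with earlier results of these data known. Named genes were all members, with values per array for probe sets at an unadjusted p under 0.05 or a difference of 0.3 or more and for others where described, and the 3 smallest p of each wider list. The fitted alternatives were other filters, scalings, covariates, a trend in the variance, and left-out probe sets or retinas.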

Additional observations from a re-analysis of the deposited data

How the results depend on the processing

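Under all 16 alternatives 0 member probe sets passed the adjusted limma test, and all 13 named probe sets kept their sign wherever they were tested. The count over the whole table was 1, and was 0 with no filter, with the replicate block, without the lens-rich retinas and with eye side as a covariate, 2 with the filter at 6, quantile normalization, median centring or cyclic loess, and 0 to 0 without single retinas. Member probe sets lower at an unadjusted p under 0.05 numbered 5, and 9 with no filter, 2 with quantile normalization, 1 with median centring, 2 with cyclic loess, 2 with the replicate block, 8 with a trend in the variance, 3 without less specific probe sets, 2 without the lens-rich retinas and 1 to 6 without single retinas. The lowest of these, 1, was without 8-month retina 1, and the count without 3-month retina 2 was 3. Those higher numbered 7, and 11 with no filter, 12 with quantile normalization, 15 with median centring, 11 with cyclic loess, 4 with eye side as a covariate and 4 to 11 without single retinas, with 4 without 8-month retina 1 or 2 and 11 without 3-month retina 2. Both directions together made up 17.7% of members against 9.23% of all probe sets with no filter, and 16.7% against 13.3% with quantile normalization. Median centring gave 19.0% against 15.0%, cyclic loess 15.5% against 13.4%, eye side 9.5% against 9.82% and the variance trend 20.2% against 15.6%. Shares were 6.0% against 9.83% without 8-month retina 1 and 16.7% against 19.6% without 3-month retina 2. The table had 1403 lower and 1388 higher with quantile normalization. The presynaptic median of 0.024 was 0.107 with median centring, 0.078 with cyclic loess, -0.033 with eye side as a covariate and -0.012 to 0.039 without single retinas. The postsynaptic median of -0.031 was 0.052 with median centring, -0.091 with eye side as a covariate and -0.074 to 0.0017 without single retinas. Median centring subtracts 1 value per array, so it moved every difference, of members and of all probe sets, by the same amount. The median of all probe sets went from -0.04 to 0.04. With eye side as a covariate only 8-month retina 1 is compared with the 3-month mean. The medians of that setting, -0.033 and -0.091, are the median deviations of this retina. Its counts and shares likewise take their age difference from this retina alone. The cause of the remaining shifts was not tested. Scaling turned the sign of 5, 14 and 4 member probe sets under quantile normalization, median centring and cyclic loess, none with a difference above 0.081. Deviations of retinas of the same number had correlations of -0.14, 0.06 and -0.28 over kept probe sets. The highest of any pair across the ages was 0.38, between the 2 lens-rich retinas. As deviations were taken from a mean of 3, these values cannot decide whether the numbers mark pairs. The replicate block left 8 member probe sets higher and 2 lower at an unadjusted limma p under 0.05.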
